A study of Mus musculus with 4 samples.

Results

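The 9 genes described here are the nuclear receptor genes Nr4a1, Nr4a2 and Nr4a3, the CREB-family factor genes Creb1 and Crem, the CREB coactivator gene Crtc2, and 3 genes that CREB is known to induce, the kinase gene Sik1, Fam46a (now Tent5a) and the coactivator gene Ppargc1a. They were chosen by name out of 26265 genes on the array, with their GKA-against-vehicle intensities on these same arrays already known, and 16 of its 39429 non-control probes carry their names. Islets, the endocrine cell clusters of the pancreas, came from C57BL/6 mice aged 8 weeks. They were kept for 24 h at 5.6 mM glucose with 30 µM GKA, a small-molecule activator of glucokinase, or with the solvent DMSO as vehicle. Each group had 2 samples, with 1 Agilent 1-colour array per sample. Nothing in the labels tells if samples in a group had different mice or cultures as their source. Errors and p-values therefore cover the spread among these 4 arrays alone, and that spread may be technical.

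CREB is a transcription factor that is switched on when cAMP or calcium rises in a cell and its CRTC coactivators enter the nucleus. In beta cells, glucose raises calcium and incretin hormones raise cAMP. Among the genes that CREB induces are brakes on the same pathway: Crem can be read from an internal promoter to give the repressor ICER, and Sik1 phosphorylates CRTC proteins and keeps them out of the nucleus. The Nr4a receptors are orphan nuclear receptors that need no known ligand and are controlled mainly by how much of them is made.

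The binding site of CREB, the cAMP response element or CRE, reads TGACGTCA in full, and the half-site TGACG is also bound. RefSeq promoter windows of build GRCm38.p6, from 250 bases before to 50 after an annotated start site, were at hand for 6 of the 9 genes. In each of the 3 Nr4a windows, 4 half-sites were found on either strand, a number reached by 0.231% of the 32851 windows in the table, while 20.8% of windows hold at least 1. These windows were not matched to those of the Nr4a genes for base composition. The stretches that hold half-sites are shown because the Nr4a genes have the same number of them, though at different positions. The part of the half-sites in the signal on the arrays was not tested. The half-sites are in capitals, as TGACG where they run along the gene and as CGTCA where they lie on the opposite strand, and each stretch reads 5′ to 3′ along the gene.
Nr4a1 (chr15:101266603-101266820, + strand): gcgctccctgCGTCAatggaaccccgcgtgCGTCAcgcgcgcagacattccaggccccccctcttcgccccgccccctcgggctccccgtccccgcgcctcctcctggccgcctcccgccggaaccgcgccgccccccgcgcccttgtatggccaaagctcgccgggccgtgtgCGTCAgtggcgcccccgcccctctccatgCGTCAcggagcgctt
Nr4a2 (chr2:57124100-57124213, - strand): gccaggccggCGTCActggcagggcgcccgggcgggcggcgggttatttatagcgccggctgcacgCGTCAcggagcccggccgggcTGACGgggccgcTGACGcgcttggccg
Nr4a3 (chr4:48045064-48045172, + strand): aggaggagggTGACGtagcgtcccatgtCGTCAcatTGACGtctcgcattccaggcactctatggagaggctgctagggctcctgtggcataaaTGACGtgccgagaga
Ppargc1a (chr5:51567760-51567784, - strand): tgccctcccaCGTCActgagctcca

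Ppargc1a had 1 half-site, and the windows of Creb1 and of Fam46a (which has 2 windows) had 0. The full CRE, a palindrome that contains the half-site on both strands, was in none of the 6 genes' windows (0) and in 1.79% of all windows. The NBRE, the site bound by a single Nr4a protein (AAAGGTCA on either strand), was likewise in 0 of them and in 1.51% of all windows. A match is a description of the letters and not evidence of binding.

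**Figure D1:**
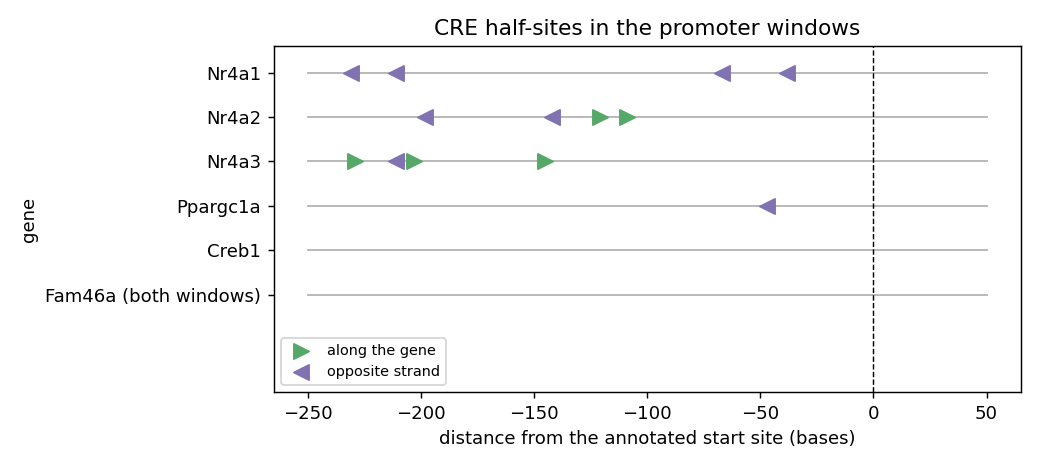
Positions of CRE half-sites in the promoter windows of 6 genes, as distance in bases from the annotated start site (dashed line). Triangles point right for half-sites along the gene and left for the opposite strand. The 3 Nr4a genes have 4 each, Ppargc1a has 1, and Creb1 and Fam46a have 0.

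Signal intensities were set on a log2 scale relative to the 75th percentile of each array, which was 751 and 755 with vehicle against 557 and 598 with GKA. All directions are therefore relative to that percentile. The median log2 fold change of all genes was -0.40 without this scaling and -0.56 when arrays were scaled to spike-in controls. On the log2 scale these controls averaged 11.71 and 11.38 with vehicle and 11.64 and 11.77 with GKA. They thus differed more between the vehicle arrays than between the GKA arrays. Genes were compared in 1 limma fit over 17178 genes, those for which some probe was well above background on each array of a group, and a gene is called higher or lower where its Benjamini-Hochberg adjusted p over all of them is under 0.05. In this fit 9.11% of the genes were called higher and 8.01% lower, 17.1% in all, and the groups did not overlap in 65.9%. The balance of directions moved with the scaling: 1565 genes were called higher and 1376 lower, against 1381 and 1848 with median scaling and 750 and 7654 without scaling. Of the 9 genes, 8 were tested and Nr4a3 did not pass the filter. With GKA, 5 were called higher (Nr4a2, Fam46a, Crem, Sik1 and Ppargc1a), 0 lower, and Nr4a1, Creb1 and Crtc2 were not called. When either GKA array was left out, fewer of the 9 were called higher, and far fewer of all genes tested were called as well. The groups did not overlap in 7 of the 8. The median log2 fold change of the 8 was 1.44, against -0.01 over all genes tested. Because the genes were chosen with this comparison in view, their counts and calls describe them and are no test of the choice. The 4 arrays shared 1 slide, with vehicle at positions 1 and 2 and GKA at positions 3 and 4. The place on the slide and the treatment cannot be told apart.

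Nr4a2, also called Nurr1 and known for its part in making dopamine neurons, had the largest difference among the 9. Its brighter probe (chromosome 2, 56960699 to 56960758 on mm9) had processed intensities of 198 and 161 with vehicle and of 1994 and 1887 with GKA. On the scaled log2 axis these were -1.92 and -2.23 against 1.84 and 1.66. The lower GKA array lay 3.58 above the higher vehicle array, a gap far wider than the 0.31 between the vehicle arrays and the 0.18 between the GKA arrays. The log2 fold change was 3.83 ± 0.15 (SE, n = 2 per group), or 14.2-fold. A second probe (56959637 to 56959696) read 74.8 and 87.7 with vehicle and 900 and 782 with GKA, and its log2 fold change was 3.76 ± 0.16. In the authors' deposited table, whose intensities are not scaled between arrays, the ratios of GKA over control for these probes were 10.8 and 10.3.

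Nr4a1, also called Nur77, is an immediate-early gene that many stimulated cells switch on within minutes. Its 1 probe (chromosome 15, 101105071 to 101105130 on mm9) read 1080 and 2101 with vehicle and 3058 and 2459 with GKA. Both GKA arrays were above both vehicle arrays, but the vehicle arrays differed from each other by 0.95 on the log2 scale, more than the 0.56 that separated the groups. The log2 fold change was 1.25 ± 0.34, or 2.38-fold, and it was not called. It was 0.77 without vehicle replicate 1 and 1.72 without vehicle replicate 2. In these fits the spread of Nr4a1 comes from the GKA arrays alone, so the difference between the vehicle arrays does not enter the error.

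Nr4a3, also called Nor1, was below the detection call on all 4 arrays. Its probe, spotted 10 times, averaged 3.38 and 3.05 with vehicle and 2.75 and 3.59 with GKA, where the dimmest probe well above background read between 9.94 and 13.6 on the 4 arrays. No fold change is given for it. The 3 receptor genes, each with 4 CRE half-sites in the stretches printed above, thus read 14.2-fold higher, 2.38-fold higher without a call, and below detection by this probe.

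**Figure D2:**
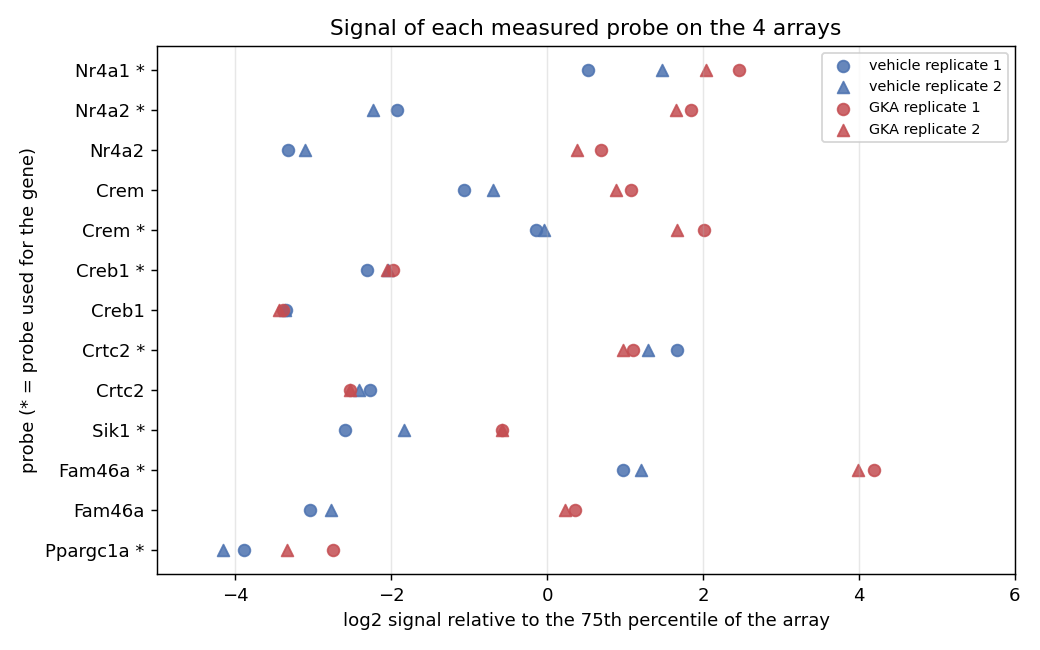
Scaled log2 signal of the 13 probes that passed the filter, 1 row per probe and 1 point per array. Vehicle arrays are blue and GKA arrays red, circles are replicate 1 and triangles replicate 2, and a star marks the probe used for its gene. Both probes of Nr4a2 and both of Fam46a show GKA points well to the right of the vehicle points, and the points of Creb1 lie together.

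Crem was higher on both GKA arrays with both of its bright probes, which lie close together near one end of the gene (3267671 to 3267730 for the brighter and 3267049 to 3267108 for the other, on mm9). The brighter read 677 and 734 with vehicle and 2250 and 1905 with GKA, with a log2 fold change of 1.94 ± 0.16, or 3.83-fold. The other read 359 and 468 against 1176 and 1104, a log2 fold change of 1.86 ± 0.17. On the brighter probe the vehicle arrays differed by only 0.11. One more probe, assigned to another Crem transcript and lying at 3294164 to 3294223, was well above background on vehicle replicate 1 alone, at 16.3, and read 3.88, 4.43 and 4.10 on vehicle replicate 2 and the GKA arrays. The difference between the groups was therefore seen with the probes at one end of the gene, and the remaining probe was not well above background with GKA. The table does not say which of these probes detect ICER.

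Sik1 had the same intensity, after scaling, on both GKA arrays. Its probe (chromosome 17, 31981255 to 31981314 on mm9) read 125 and 211 with vehicle and 373 and 401 with GKA, or -2.59 and -1.84 against -0.58 and -0.58 on the scaled log2 axis. The log2 fold change was 1.64 ± 0.26, or 3.11-fold. Measured against vehicle replicate 1 alone it was 2.01, and against vehicle replicate 2 alone 1.26. When either GKA array was left out, the log2 fold change of Sik1 stayed at 1.64. Its call was lost each time, in fits that called far fewer of all genes.

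Fam46a encodes a poly(A) polymerase that lengthens the tails of certain mRNAs, and after Nr4a2 it had the largest difference of the 9 and a far brighter signal on the GKA arrays. Its brighter probe (chromosome 9, 85218249 to 85218308 on mm9) read 1476 and 1735 with vehicle and 10198 and 9493 with GKA. The log2 fold change was 3.005 ± 0.14, or 8.03-fold. Its other probe (85215220 to 85215279) read 90.7 and 110 against 711 and 699, with a log2 fold change of 3.20 ± 0.14. With both probes, both GKA arrays were far above both vehicle arrays, and arrays of one group differed by at most 0.27 on the log2 scale.

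Ppargc1a encodes PGC-1alpha, a coactivator of genes for mitochondria and, in liver, for glucose production. Its measurable probe (chromosome 5, 51848928 to 51848987 on mm9) was dim, at 50.7 and 42.3 with vehicle and 82.8 and 58.9 with GKA. The groups did not overlap, but the GKA arrays differed by 0.59 on the log2 scale, slightly more than the gap of 0.54 between the groups. The log2 fold change was 0.98 ± 0.23, or 1.97-fold. The call was lost when any 1 of the 4 arrays was left out, with log2 fold changes from 0.68 (GKA replicate 1 left out) to 1.27 (GKA replicate 2 left out). The second Ppargc1a probe was below the detection call on all 4 arrays.

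The factor and the coactivator that act upstream of these genes showed small differences. Creb1 read 152 and 183 with vehicle and 141 and 144 with GKA on its brighter probe, and after scaling the groups overlapped, with a log2 fold change of 0.16 ± 0.14 and of -0.06 ± 0.11 on its other probe. Without scaling between arrays and with spike-in scaling the sign turned, to -0.22 and -0.38. Crtc2 (chromosome 3, 90067950 to 90068009 on mm9) read 2392 and 1861 with vehicle and 1198 and 1171 with GKA. Both GKA arrays were below both vehicle arrays, by 0.20 at the closest, and the log2 fold change was -0.45 ± 0.16. Its dimmer probe gave -0.19 ± 0.12. Crtc2 was not called, but it was called lower without scaling (-0.83), with spike-in scaling (-0.99) and with normexp background correction and the 75th percentile (-0.45). The median of all genes was -0.40 without scaling and -0.56 with spike-in scaling. In these settings 7654 and 7527 of all 17178 genes were called lower. In the spike-in fit Crtc2 and Creb1 had the same standard error, 0.27, so the spread of each gene did not enter.

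**Figure D3:**
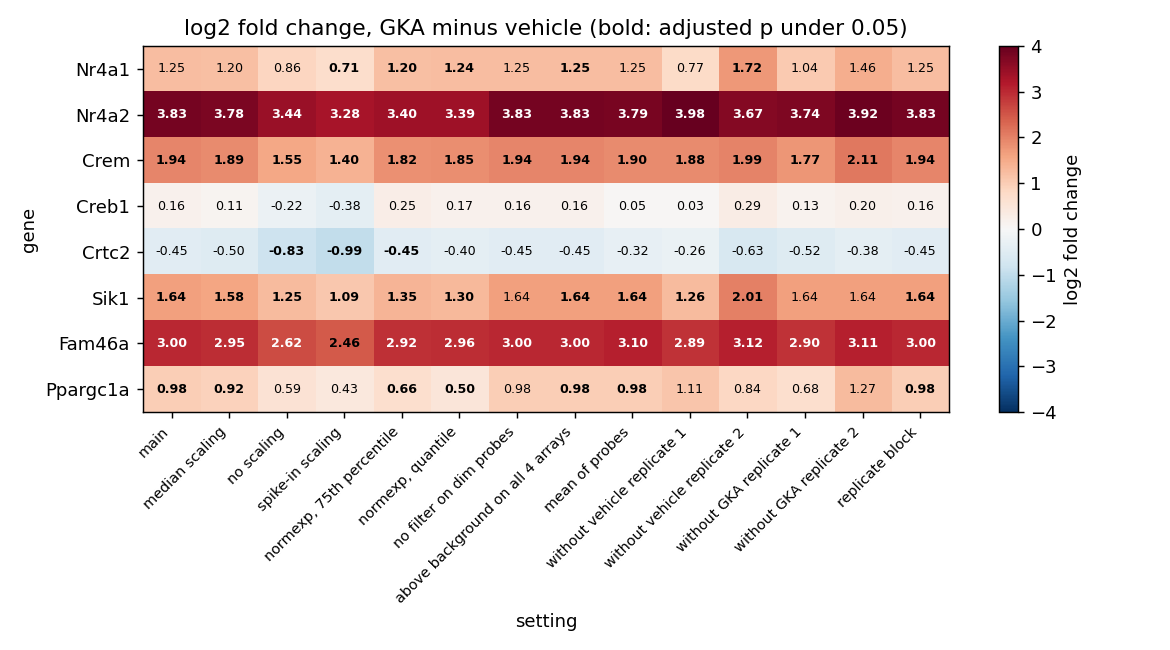
Log2 fold change of the 8 tested genes (rows) in the reported fit and under 13 other settings (columns). Colour and number give the value, and bold marks an adjusted p under 0.05. Nr4a2, Crem and Fam46a are called in every column, Ppargc1a in the reported fit and 6 others.

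The vehicle arrays differed for some of the CREB-induced genes and not for others. Nr4a1 and Sik1 were higher on vehicle replicate 2 than on replicate 1, by 0.95 and 0.75 on the log2 scale, and only 1.71% and 3.21% of all tested genes differed more between these arrays. Other CREB-induced genes, chosen here after their values were seen, differed further: Fos by 2.49, Gem by 2.54 and Egr1 by 2.76. Crem, at 0.11, and Nr4a2, at -0.31, did not share this difference. For Egr1 the mean of the GKA arrays was 1.39 above vehicle replicate 1, and its difference from vehicle replicate 2 was -1.37. For Nr4a2 it was 3.67 above the first and 3.98 above the second, and for Fam46a 3.12 and 2.89. Crem lay 1.99 and 1.88 above them. What part the difference between the vehicle arrays has in the values of Nr4a1 and Sik1 was not tested beyond leaving out each array.

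**Figure D4:**
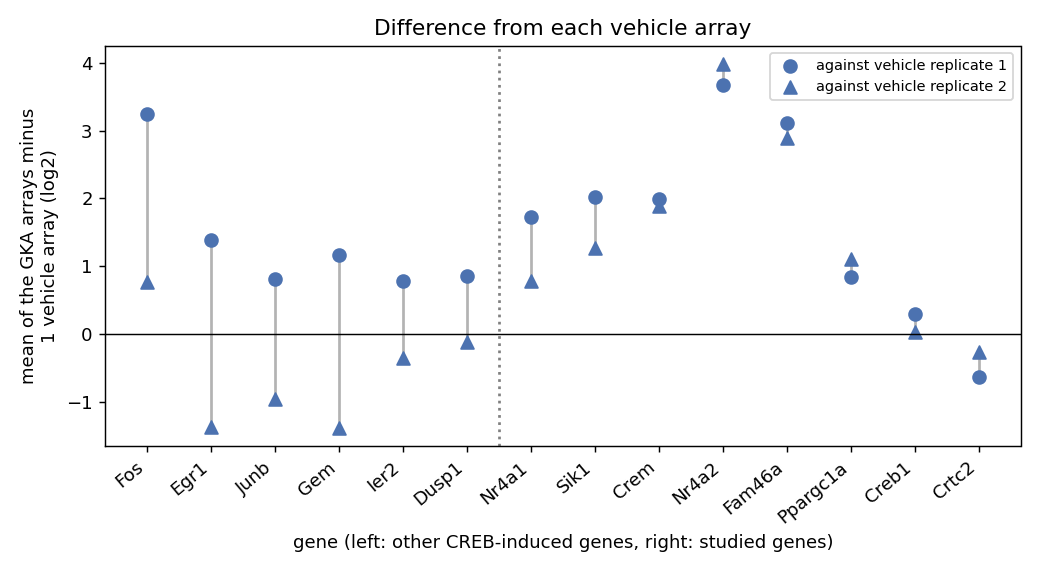
Mean of the GKA arrays minus each vehicle array, on the log2 scale, for 6 other CREB-induced genes (left of the dotted line) and the 8 tested genes (right). Those on the left differed most between the vehicle arrays among 21 other CREB-induced genes tested. Circles are against vehicle replicate 1 and triangles against vehicle replicate 2. Fos lies above 0 against both, and Egr1, Junb, Gem, Ier2 and Dusp1 change sign with the vehicle array. Nr4a2, Fam46a, Crem, Sik1, Nr4a1 and Ppargc1a lie above 0 against both, as does Creb1, by 0.03 at the closest. Crtc2 lies below 0 against both.

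Other genes of the pathway were taken from 4 lists with 63 genes in all, of which 59 were tested. In limma 9 were called higher and 4 lower, 22.0% against 17.1% of all genes, and their median was -0.02. Among 21 activators and coactivators of CREB and the kinases around them, 1 was called higher, 1 lower and 19 were not called, with a median of -0.04. Without scaling 1 was called higher and 11 lower, and with spike-in scaling 1 and 9. Of all 17178 genes, 750 were called higher and 7654 lower without scaling, and 435 and 7527 with spike-in scaling. The gene called higher was Prkar1a, which encodes a regulatory subunit that holds protein kinase A inactive until cAMP binds. It stood at 4.44 on both vehicle arrays and at 5.90 and 5.70 with GKA, a log2 fold change of 1.36 ± 0.13 (adjusted p = 0.00623 in limma). The CREB coactivator gene Crtc3 was called lower, at -0.50 ± 0.12 (adjusted p = 0.0477 in limma) and lost the call when any 1 array was left out. The catalytic subunits Prkaca and Prkacb, at -0.19 and -0.04, and the other salt-inducible kinases, Sik2 at 0.18 and Sik3 at 0.14, overlapped between the groups. The other regulatory subunit genes listed, Prkar2a at -0.06 and Prkar2b at -0.03, were not called.

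Of 22 other genes that CREB is known to induce, 21 were tested, with a median of 0.21. In this list 7 were called higher, 1 lower and 13 were not called. Of all genes tested, 9.11% were called higher and 8.01% lower. The balance of the list moved with the scaling, to 5 higher and 4 lower without scaling and to 4 higher and 6 lower with spike-in scaling. The balance of all 17178 genes moved too, to 750 higher and 7654 lower without scaling and to 435 and 7527 with spike-in scaling. Vgf, the precursor of secreted neuroendocrine peptides, had log2 signals of 4.20 and 3.86 with vehicle and 6.31 and 6.01 with GKA, a difference of 2.13 ± 0.18 (adjusted p = 0.00518 in limma). Pde10a, an enzyme that breaks down cyclic nucleotides, was higher by 1.53 ± 0.14 (adjusted p = 0.00578 in limma), and Irs2, an adaptor of the insulin receptor, by 1.21 ± 0.15 (adjusted p = 0.0125 in limma). The somatostatin gene Sst, in which the CRE was first defined, was higher by 0.83 ± 0.13 (adjusted p = 0.0198 in limma). Areg, an epidermal growth factor receptor ligand, was called lower, at -0.99 ± 0.17 (adjusted p = 0.0243 in limma). More genes of the list were called higher when vehicle replicate 2 was left out, and fewer when either GKA array was left out. Over all genes, calls were also far fewer without either GKA array, but not more without vehicle replicate 2. Vgf and Pde10a kept their calls when each array was left out, Irs2 lost its call without GKA replicate 1 (1.04), and Sst and Areg lost theirs when either GKA array was left out (0.71 and 0.96 for Sst, -0.98 and -0.998 for Areg). With spike-in scaling Sst stood at 0.29 and was not called.

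Genes that work with or below the Nr4a receptors showed no call in the reported fit. Of 11 listed, 10 were tested, with 0 higher and 0 lower in limma at the adjusted threshold and 2 at an unadjusted p under 0.05, and a median of -0.05. Without scaling 4 of them were called lower, with spike-in scaling 5 were, and with normexp and the 75th percentile 1 was called higher. Of all 17178 genes, 7654 were called lower without scaling and 7527 with spike-in scaling. With normexp and the 75th percentile 2990 were called higher. The brightest were Ddc, an enzyme of dopamine synthesis, at -0.02 ± 0.13, and the beta-cell transcription factor gene Nkx6-1, at 0.34 ± 0.13. Without scaling Ddc stood at -0.41 and Nkx6-1 at -0.04, and with spike-in scaling at -0.56 and -0.20. The dopamine-synthesis gene Th, a known Nr4a2 target in neurons, stood at 0.04 ± 0.14 with overlapping groups. Among 9 partners and targets of PGC-1alpha, 7 were tested, 1 was called higher and 2 lower, against 0 and 5 without scaling and 0 and 4 with spike-in scaling. Cycs, which encodes cytochrome c, was higher by 0.70 ± 0.11 (adjusted p = 0.0206 in limma), and the factor gene Nrf1 was lower, at -0.60 ± 0.11 (adjusted p = 0.0289 in limma). Both lost their calls when either GKA array was left out, Nrf1 also without vehicle replicate 1, and Cycs stood at 0.16 with spike-in scaling and was not called. Ppargc1b, a paralogue of Ppargc1a, was called lower (adjusted p = 0.0292 in limma) but was below the detection call on both GKA arrays, so it can only be put at least 1.02-fold lower, and it passed the filter through the vehicle arrays alone. Its call was lost without vehicle replicate 1 (-0.85), without GKA replicate 2 (-0.73) and with normexp and quantile normalization (-0.19), and it turned to 0.13 with normexp and the 75th percentile.

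**Figure D5:**
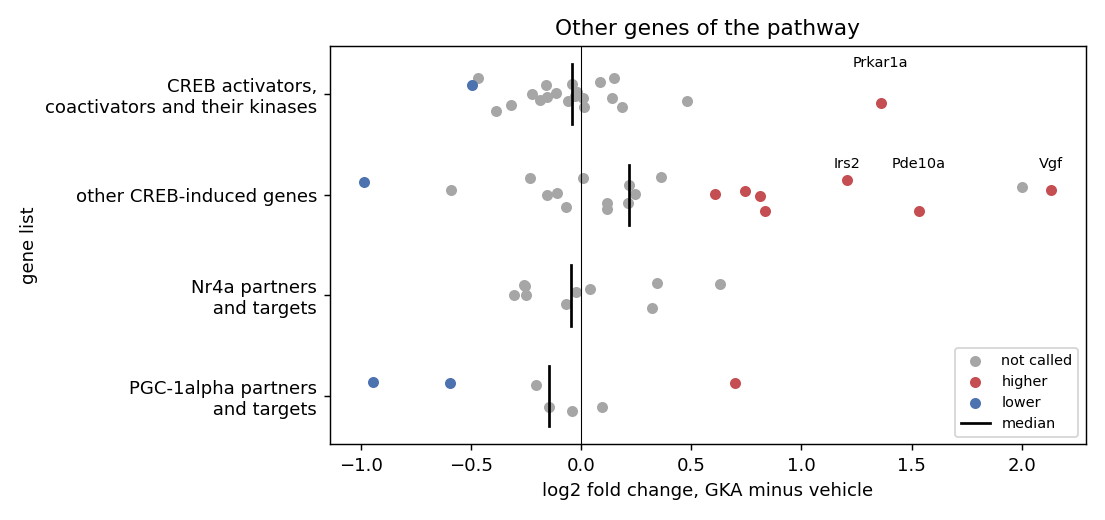
Log2 fold change of the tested genes in 4 pathway lists, 1 point per gene, red for genes called higher, blue for genes called lower and grey for genes not called, with the median of each list as a black bar. Vgf, Pde10a, Prkar1a and Irs2 are the called genes furthest to the right.

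The 5 genes whose centred signal over the 4 arrays was closest to that of Nr4a2, among 12473 named genes well above background on all arrays, were Fbln5, Slpi, Ttyh1, Dclk1 and Slc7a3. The root mean square distance of their log2 profile from that of Nr4a2 was 0.10 for Fbln5, an extracellular matrix protein, 0.17 for Slpi, a secreted protease inhibitor, 0.34 for Ttyh1, 0.38 for Dclk1 and 0.44 for Slc7a3. With 4 arrays in 2 groups, such closeness mostly restates a similar difference between the groups.

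The islet samples carried the markers of endocrine cells, and all 9 listed were tested, with Pdx1 (1.11) and Mafa (1.06) called higher and 7 not called. The summed signal of these markers, relative to the 75th percentile, was 2406 and 2378 with vehicle and 2894 and 2798 with GKA. Nr4a genes are also made in macrophages and endothelial cells. Of 10 leukocyte markers 4 were called lower (Lyz2 at -2.14, Aif1 at -1.56, Emr1 at -0.79 and Ptprc at -0.46) and Cd14 higher (1.32). Of all genes tested, 8.01% were called lower and 9.11% higher. Lyz2 was well above background on only 1 GKA array. The summed leukocyte signals were 12.2 and 12.7 against 11.2 and 10.74, and Cd74, the brightest of the list, was not called (-0.52). Of 6 endothelial markers Cdh5 was called higher and Emcn lower (11.0 and 11.2 against 12.5 and 11.6). Of 7 fibroblast markers 6 were tested and Col1a2 was called lower (6.02 and 7.61 against 4.39 and 4.95), and of 7 duct markers 6 were tested, with Spp1 higher and Krt7 lower (31.6 and 28.6 against 28.8 and 35.1). Acinar markers were dim: 3 of 8 were tested and 0 were called in limma (also 0 at an unadjusted p under 0.05). The brightest, Cel and Ctrb1, were well above background on all 4 arrays and stood at 0.25 and -0.10. The summed signal of the list was 0.225 and 0.166 against 0.220 and 0.175. The part of these cells in the values of the 9 genes was not tested, and in whole islets fewer cells of a type and less RNA per cell cannot be told apart.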

How the data were processed

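Each sample was hybridised to 1 array of 1 slide. The deposited array files give an intensity per spot, background-subtracted and detrended with Agilent Feature Extraction (version 10.7.3.1 per the file headers, 9.1 per the submitters' processing notes) and not scaled between arrays. A table the authors deposited gives an intensity per group and a ratio of GKA over control. Its group intensities equalled the mean of the 2 arrays within 0.1% for 100% of 39028 single-spot probes. Its median ratio was 0.841, so it was used only for gene names, mm9 coordinates and the ratios quoted.

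Control spots and spots marked as outliers were left out, spots of a probe were averaged as log2, and the 75th percentile of each array was subtracted. A gene was represented by its brightest probe among those kept. Groups were compared with limma version 3.58.1 in R version 4.3.3 (lmFit and eBayes, two-sided, 2 residual and 3.33 prior degrees of freedom), which was tested on simulated data. Values of single probes came from a fit over all kept probes. An exact permutation test of 4 arrays cannot go below 0.333, so none is given. The number of arrays limits the precision. Between 59.7% and 63.5% of probes were well above background, and 0 spots were saturated.

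The genes and lists were chosen with earlier results of these data known. By rule, the text names all 9 genes, up to 4 called genes per direction of each list (or the 2 brightest), and 5 genes closest to Nr4a2. Others named were chosen after their values were seen. Probes in the table carry no exon or UTR annotation. Alternatives were other scalings, background corrections, filters and probe rules, each array left out, and the replicate block. The array files have no mean signal, so normexp used the median signal (offset 50), and spike-in scaling used spots above background on all arrays; both were chosen after seeing the files.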

Additional observations from a re-analysis of the deposited data

How the results depend on the processing

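Of the 9 genes, Nr4a2, Crem and Fam46a were called higher under all 13 alternatives, with log2 fold changes from 3.28 to 3.98, from 1.40 to 2.11 and from 2.46 to 3.12. Sik1 (1.09 to 2.01) and Ppargc1a (0.43 to 1.27) kept their direction, but Sik1 lost its call under 3 alternatives and Ppargc1a under 7. Nr4a1 (0.71 to 1.72) was called under 5. With spike-in scaling, where Nr4a1 stood at 0.71, each tested gene of the 9 had the same standard error, 0.27. The spread of a single gene thus did not enter its call in that fit. Creb1 turned to -0.22 without scaling and -0.38 with spike-in scaling, and Nkx6-1 to -0.040 and -0.20. Ppargc1b turned to 0.13 with normexp and the 75th percentile. Ddc ranged from -0.12 to 0.075 when 1 array was left out, but stood at -0.41 without scaling and -0.56 with spike-in scaling.

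Counts moved with the scaling. Without scaling 750 genes were called higher and 7654 lower, with 1 of the 9 genes (Crtc2) and 24 pathway genes lower. With spike-in scaling the counts were 435 and 7527, with 1 of the 9 genes lower and 5 pathway genes higher against 24 lower. These counts come from the fit with the common standard error. With normexp and the 75th percentile 2990 genes were called higher and 1 of the 9 genes lower. Without the filter on dim probes 156 genes were called higher and 67 lower, 3 of the 9 genes higher, and 2 pathway genes higher and 0 lower. That fit tested 26263 genes and its standard errors were larger (0.18 against 0.15 for Nr4a2), and the share of each in the lost calls was not tested.

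Leaving out 1 array gave 315 to 1523 genes higher and 206 to 1312 lower, 3 to 5 of the 9 genes higher, and 3 to 14 pathway genes higher and 0 to 3 lower. The lone array of a group is then assumed to vary like the other group. Across genes, the differences between replicates 2 and 1 in the 2 groups correlated with r = 0.08. This value cannot tell if samples with the same replicate number shared mice or cultures, because a shared source with a small effect could give it too. With the replicate number as a block 1014 genes were called higher and 902 lower, 5 of the 9 genes higher, and 2 pathway genes lower. Low signal limits Nr4a3 and Ppargc1a.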
